A study of Mus musculus with 20 samples.

Results

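Kidney cortex of mice with rhabdomyolysis was compared directly with kidney cortex of mice given cisplatin, gene by gene. The members were the 8 libraries of these groups, 4 each, of the 20 in the series, and the 5672 of 6025 deposited genes whose mean over all 20 libraries reached 1 CPM (reads scaled to a library of 1 M). All mice were C57BL/6 of wild-type genotype and 8 weeks old. The rhabdomyolysis kidneys were taken at 24 h and the cisplatin kidneys at 72 h, so injury and time cannot be told apart. The 4 controls whose library identifiers fall in the same range (controls 5 to 8) were labelled mock, while the series describes its controls as mock and vehicle animals, and they are used here to show where each gene lay without injury. Doses are not given in the sources used here. Each library was made from polyadenylated RNA of whole cortical tissue, in which fewer cells of a type and less RNA per cell cannot be told apart. The table is a selection of genes: each of the 5672 differed at least 1.5-fold between the mean of the 8 controls of the series and the mean of at least 1 of its injuries (smallest value 1.53-fold). Every count of called genes is thus a count within genes preselected for change.

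In rhabdomyolysis, damaged muscle releases myoglobin, whose heme is taken up by the proximal tubule and is broken down by heme oxygenase. Cisplatin enters tubule cells through organic cation transporters and forms adducts with DNA, which activate the transcription factor p53. Cells meet misfolded protein in the cytosol with heat shock factors and in the endoplasmic reticulum (ER) with the unfolded protein response. Shortage of amino acids, heme or folding capacity converges on the integrated stress response and its transcription factor ATF4, and oxidants act through NRF2.

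Within the genes tested, which were preselected for change, the injuries were well separated. In a principal component analysis of log2(CPM + 1) over the 8 libraries, the first component held 74.5% of the variance and split the groups, and the second (9.63%) set rhabdomyolysis 4 furthest from the rest of its group. Across genes, which are not independent replicates, Pearson r was 0.973 to 0.989 between rhabdomyolysis libraries, 0.976 to 0.992 between cisplatin libraries and 0.894 to 0.931 between the groups. The table held 3.99 to 4.73 M (mega) reads per rhabdomyolysis library, 3.89 to 4.89 M per cisplatin library and 3.58 to 4.99 M per control. Proximal tubule genes were abundant throughout: 21 tested markers of that segment summed from 10810.0 to 13047 CPM in rhabdomyolysis, from 7036 to 12091 in cisplatin and from 54423 to 71742 in the controls. The p-values describe the spread between mice, and the labels call the libraries biological replicates.

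With limma, 3068 genes (54.1%) passed a Benjamini-Hochberg adjusted p of 0.05, and 1215 (21.4%) were higher and 1853 (32.7%) lower in rhabdomyolysis. The median log2 difference, rhabdomyolysis minus cisplatin, was -0.09 over all genes, and every difference below is on the log2(CPM + 1) scale, which understates the change of genes with few reads. The split of calls moved with scaling: 39.6% were higher in rhabdomyolysis with the deposited values, 47.2% with 75th percentile scaling, 50.7% with DESeq2 and 51.8% after quantile normalization, while a 2-fold minimum gave 31.1%. The median over all genes moved to -0.01, 0.02 and 0.04 with the first 3 of these changes of scaling. The 4 and 4 libraries did not overlap for 2709 genes (47.8%), of which 1065 (18.8%) were higher in rhabdomyolysis and 1644 (29%) in cisplatin. Of the called genes named below, 11 had groups that overlapped: Il11, Il24, Timp1, Tnc, Eng, Myc, Mlkl, Slc5a2, G6pc, Egf and Top2a. Most differences were between 1-fold and 2-fold. On the log2(CPM + 1) scale, 284 genes were at least 2-fold higher and 629 at least 2-fold lower, 63 and 125 passed 4-fold, and 12 and 9 passed 16-fold.

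**Figure D1:**
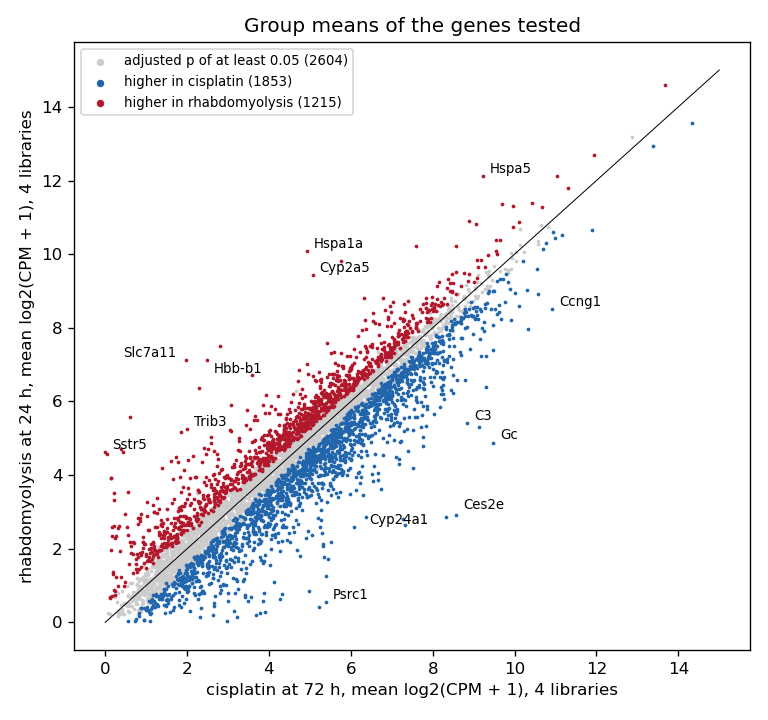
Mean log2(CPM + 1) of each of the 5672 tested genes in rhabdomyolysis at 24 h (vertical axis) against cisplatin at 72 h (horizontal axis), 4 libraries each; the line marks equality. The 1215 genes higher in rhabdomyolysis are red, the 1853 higher in cisplatin are blue, and genes with few or no reads in a group, such as Sstr5 and Psrc1, lie along the axes.

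The controls place these differences. Of the 1215 genes higher in rhabdomyolysis, 967 (79.6%) had a control mean below both injuries, 211 (17.4%) a control mean above both and 37 a control mean between them. Of the 1853 genes lower in rhabdomyolysis, 1314 (70.9%) had a control mean above both injuries, 457 (24.7%) below both and 82 between. Both contrasts with control share the 4 controls, so their values are only set side by side: 5404 genes (95.3%) were called in rhabdomyolysis, 48.8% higher and 46.5% lower, and 5208 (91.8%) in cisplatin, 47.8% higher and 44% lower. Calls of opposite sign against control were rare. Only 5 genes (0.0882%) were above control in rhabdomyolysis and below it in cisplatin: Cyp2a5, Adm2, Lhpp, Hsph1 and Gbe1. There were 25 (0.441%) with the opposite pattern, among them the glutamine transporter Slc38a3, Cyp24a1, Ces2e and Svop.

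The largest difference in favour of rhabdomyolysis among chaperones was that of Hspa1a, the main heat-inducible HSP70 of the cytosol. Its level was 2128, 801, 937 and 857 CPM in rhabdomyolysis 1 to 4, 29.3, 32.2, 31.1 and 25.4 CPM in cisplatin 1 to 4 and 12.5, 10.7, 12.8 and 8.56 CPM in controls 5 to 8. The groups did not overlap, and rhabdomyolysis 1 was far above the other libraries of its group (difference 5.16, SE 0.22, limma adjusted p 4.31e-14). Hspa1b, its neighbouring near-copy, was at 979 CPM ± 501 against 53.3 ± 8.28 (SD, n = 4 each). Reads of this pair can be exchanged, and their promoters are nearly the same: over the 250 bases before the start of transcription they differ at 3. Reference promoters are printed for these genes and for Hspb1, the small heat shock protein HSP27, because each holds a 2-unit heat shock element (GAANNTTC or TTCNNGAA on either strand, in capitals). They run 5′ to 3′ on the gene's strand and are from RefSeq, build GRCm38.p6, at chr17:34972157-34972406 (minus strand), chr17:34959239-34959488 (minus strand) and chr5:135887669-135887918 (plus strand).
Hspa1a: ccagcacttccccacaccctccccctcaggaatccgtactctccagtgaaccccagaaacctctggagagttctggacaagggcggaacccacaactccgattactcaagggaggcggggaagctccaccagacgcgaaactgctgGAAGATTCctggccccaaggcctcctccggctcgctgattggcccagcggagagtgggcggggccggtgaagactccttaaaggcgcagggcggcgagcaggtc
Hspa1b: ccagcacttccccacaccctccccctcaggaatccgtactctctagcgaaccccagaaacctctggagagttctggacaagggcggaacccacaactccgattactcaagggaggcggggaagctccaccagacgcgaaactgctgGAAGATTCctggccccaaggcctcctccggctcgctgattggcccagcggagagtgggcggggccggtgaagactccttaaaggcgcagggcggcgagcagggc
Hspb1: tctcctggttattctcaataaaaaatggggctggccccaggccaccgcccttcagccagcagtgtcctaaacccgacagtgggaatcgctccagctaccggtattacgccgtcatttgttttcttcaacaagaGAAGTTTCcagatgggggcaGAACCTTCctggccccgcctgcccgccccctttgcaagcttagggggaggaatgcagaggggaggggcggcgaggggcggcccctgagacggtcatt
The element begins 104 bases before the start in Hspa1a and Hspa1b, and 117 and 97 bases before it in Hspb1. Of the 14 tested chaperones, 11 had a promoter in the reference table, and 7 of these (63.6%) held the element, against 12.2% of 4233 tested genes and 14.6% of 27025 genes with such a window. Of the 7, Dnajb4 and Fkbp4 were not called. The longer element of 3 alternating units, in the same letters, was also searched for, and none of the 11 held it, against 0.473% of tested genes. These matches are a description of letters, not of binding.

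Most tested genes of the heat shock and cytosolic chaperone list were higher in rhabdomyolysis. Of its 25 genes 14 were tested; 10 were higher in rhabdomyolysis, none lower, and 4 did not pass, with a median difference of 1.34 against -0.09 over all genes. The share of 10 of 14 compares with 21.4% of all genes tested. Hsph1, an HSP110 exchange factor for HSP70, was at 625, 376, 419 and 414 CPM in rhabdomyolysis, 75.1, 85.0, 82.2 and 72.0 in cisplatin and 80.4, 85.5, 175 and 112 in the controls. Its cisplatin libraries overlapped the lower controls, and its rhabdomyolysis libraries lay above every control. Hspb1 was at 439, 229.7, 316 and 231 CPM in rhabdomyolysis and 68.5, 87.2, 83.1 and 85.9 in cisplatin, without overlap, and at 7.01 CPM ± 1.12 in the controls (SD, n = 4). The co-chaperones Dnajb1 (163 against 52.9 CPM), Bag3 (172 against 66.9 CPM) and Hspb8 (44.5 against 12.2 CPM) and the HSP90 gene Hsp90aa1 (2556 against 1004 CPM) were also higher. The constitutive HSP70 Hspa8 was at 2737 CPM in rhabdomyolysis, 1365 in cisplatin and 2504 in the controls, and was the member whose rhabdomyolysis and control means were closest to each other among those named. Serpinh1, a heat-inducible collagen chaperone that resides in the ER, and Fkbp4 did not pass, with differences of 0.43 and 0.30, and both passed after quantile normalization.

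ER chaperones moved one way as well. All 10 tested of 15 were higher in rhabdomyolysis, against 21.4% of all genes tested, with a median difference of 1.67. Hspa5, the HSP70 of the ER known as BiP, was at 3829, 4666, 4976 and 4498 CPM in rhabdomyolysis, 595, 621, 608 and 558 in cisplatin and 319.5, 310.2, 451 and 350.4 in the controls. The groups stood 7.54-fold apart in their means, and the cisplatin libraries lay just above the controls (difference between the injuries 2.91, SE 0.13, limma adjusted p 1.12e-13). Hsp90b1, the ER HSP90 known as GRP94, was at 1566, 2359.9, 2488 and 1412 CPM in rhabdomyolysis and 517, 481, 471 and 418 in cisplatin, with 481 CPM ± 73.3 in the controls (SD, n = 4). Against control its log2 difference was 1.99 in rhabdomyolysis and -0.02 in cisplatin. Creld2 (135 against 29.4 CPM), Sdf2l1 (60.7 against 15.5 CPM), the exchange factor Hyou1 (428 against 130.3 CPM), the secreted factor Manf (246 against 77.2 CPM) and the disulfide isomerase Pdia4 (314 against 119 CPM) followed. The members' summed level ran from 7294 to 10159.8 CPM in rhabdomyolysis, from 1728 to 2025 in cisplatin and from 1617 to 2066 in the controls. The summed cisplatin range thus lay within the control range. The median log2 difference of the members from control was nevertheless 0.47 in cisplatin, and 2.21 in rhabdomyolysis. Derl3, which helps to export misfolded protein from the ER, had 13.2 CPM ± 8.54 in rhabdomyolysis (SD, n = 4), and no cisplatin library held more than 3 of its reads.

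The promoters of Hspa5 and Hsp90b1 are shown because each holds the ER stress element, CCAAT and CCACG with 9 bases of any kind between them (in capitals, either strand), beginning 65 bases before the start in Hspa5 and 212 and 107 bases before it in Hsp90b1. They lie at chr2:34771840-34772089 (plus strand) and chr10:86705445-86705694 (minus strand), from RefSeq, GRCm38.p6.
Hspa5: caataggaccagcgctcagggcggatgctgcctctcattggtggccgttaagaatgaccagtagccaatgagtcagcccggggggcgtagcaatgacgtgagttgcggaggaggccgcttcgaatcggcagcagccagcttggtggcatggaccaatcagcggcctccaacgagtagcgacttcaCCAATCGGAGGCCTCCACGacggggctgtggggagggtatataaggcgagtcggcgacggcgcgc
Hsp90b1: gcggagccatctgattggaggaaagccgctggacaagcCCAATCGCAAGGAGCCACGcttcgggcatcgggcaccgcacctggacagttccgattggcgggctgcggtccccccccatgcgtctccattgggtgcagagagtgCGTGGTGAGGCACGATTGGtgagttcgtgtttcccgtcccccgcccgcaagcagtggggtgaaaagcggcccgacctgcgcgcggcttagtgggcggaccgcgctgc
This element was found in 4 of the 8 members with a promoter in the table (Hspa5, Hsp90b1, Pdia6 and Creld2), against 0.213% of 4233 tested genes and 0.130% of 27025 genes. It was searched for after the levels of these genes had been seen.

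**Figure D2:**
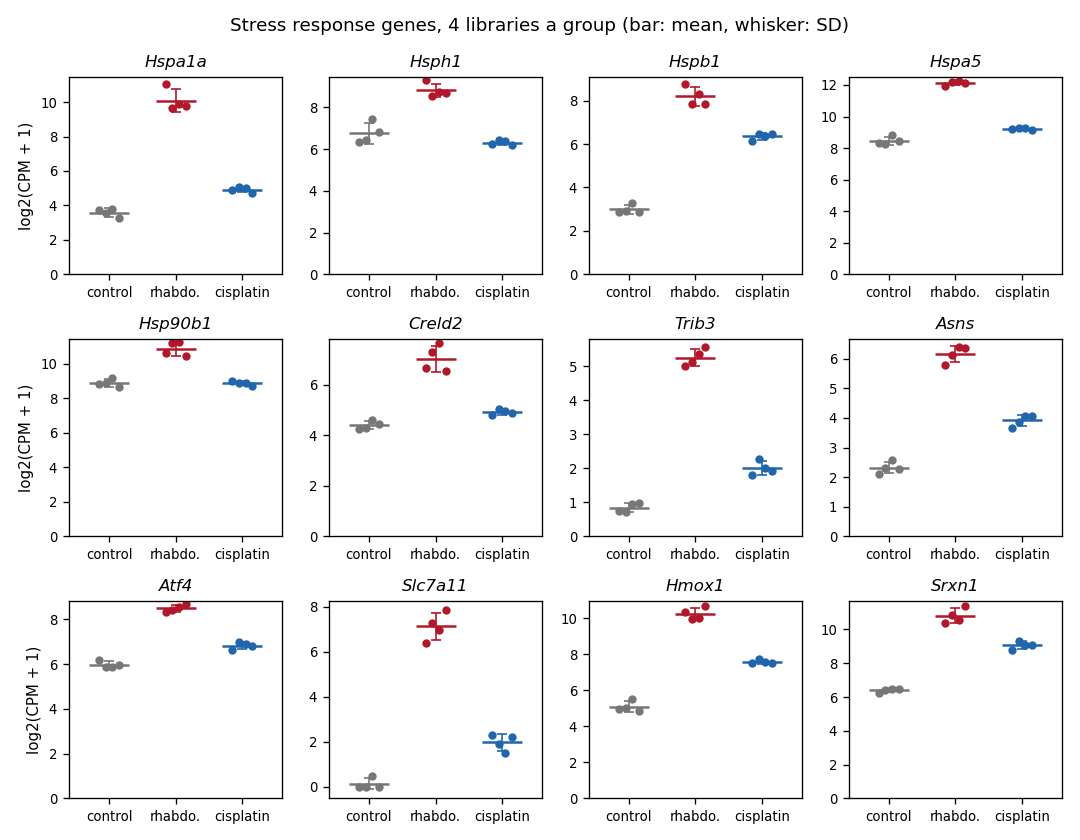
log2(CPM + 1) of 12 stress response genes in controls 5 to 8 (grey), rhabdomyolysis (red) and cisplatin (blue); points are libraries, bars are means and whiskers are SDs over 4 libraries. The rhabdomyolysis libraries lie above the cisplatin libraries for all 12 genes, and for Hsph1 and Hsp90b1 the cisplatin mean lies at or below the control mean.

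Genes of the integrated stress response were mostly higher in rhabdomyolysis. Of 20 tested members of 24, 14 (70%) were higher and 4 (20%) lower, against 21.4% and 32.7% of all genes tested. The median difference was 1.33. Trib3, a pseudokinase that restrains ATF4 signalling, was at 31.0, 33.6, 39.6 and 45.8 CPM in rhabdomyolysis, 2.45, 3.84, 3.02 and 2.81 in cisplatin and 0.801 CPM ± 0.174 in the controls (SD, n = 4). Chac1, which degrades glutathione, was at 17.5 CPM ± 4.03 against 1.63 ± 0.193 (SD, n = 4 each). Asparagine synthetase, Asns, was at 54.5, 68.3, 83.5 and 80.8 CPM in rhabdomyolysis and 11.7, 13.5, 15.9 and 15.8 in cisplatin, with no overlap. The transcription factors Atf4 (361 against 113 CPM), Atf3 (92.7 against 34.6 CPM) and Ddit3, which encodes CHOP (70.7 against 28.7 CPM), the amino acid transporters Slc7a1 (108 against 30.5 CPM) and Slc7a5 (54.3 against 17.2 CPM), the mitochondrial folate enzyme Mthfd2 (37.0 against 7.36 CPM) and the eIF2α phosphatase subunit Ppp1r15a (343 against 91.8 CPM) were all higher in rhabdomyolysis. Ddit4, which restrains mTORC1, was among the 4 members lower in rhabdomyolysis (44.3 against 84.9 CPM); 2 were lower without rhabdomyolysis 1, without rhabdomyolysis 2 or without cisplatin 4. The CCAAT-enhancer-binding protein and ATF element TGATGNAAT (either strand) was found in 1 of 19 members with a promoter in the table (5.26%), against 0.520% of tested genes. Adm2, a calcitonin-family peptide gene, was at 10.9 CPM ± 3.36 in rhabdomyolysis, 0.477 ± 0.104 in cisplatin and 2.15 ± 0.538 in the controls (SD, n = 4 each).

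Protein turnover and ribosome production followed the same direction. All 7 tested proteasome subunits of 31 were higher in rhabdomyolysis (median 0.82), against 21.4% higher and 32.7% lower over all genes tested. Among them were Psmd14 (180.4 against 80.7 CPM) and Psma5 (176 against 81.6 CPM). Of 14 tested ribosome biogenesis genes of 20, 13 were higher and none lower (median 0.68), led by the nucleolar protein Nop58 (148 against 68.9 CPM) and including nucleolin, Ncl (920.4 against 542 CPM). Both medians were below those of the chaperone lists.

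NRF2 targets did not move together. Of 11 tested members of 18, 6 (54.5%) were higher and 4 (36.4%) lower in rhabdomyolysis (median 0.51). Over all genes tested these shares were 21.4% and 32.7%, so the lower share was near the background. Slc7a11, the cystine importer of glutathione synthesis, differed most, at 83.2, 153, 123 and 228 CPM in rhabdomyolysis and 3.97, 2.73, 1.79 and 3.68 in cisplatin, and 3 of the 4 controls held none of its reads. The difference was 5.13 (SE 0.29, limma adjusted p 4.02e-12). Hmox1, heme oxygenase 1, was at 1288, 986, 1016 and 1603 CPM in rhabdomyolysis, 183, 215, 186 and 184 in cisplatin and 33.6 CPM ± 7.71 in the controls (SD, n = 4). Srxn1, which repairs oxidized peroxiredoxins, was at 1861 CPM ± 617 against 539.6 ± 87.3 (SD, n = 4 each). The opposite order was found for Ephx1, microsomal epoxide hydrolase, at 37.8, 39.2, 38.4 and 40.3 CPM in rhabdomyolysis, 603, 594, 486 and 577 in cisplatin and 51.2, 43.3, 41.7 and 52.5 in the controls, so that rhabdomyolysis lay just below the controls and cisplatin far above them (difference -3.82, SE 0.13, limma adjusted p 1.63e-15). The quinone reductase Nqo1 was likewise lower in rhabdomyolysis (132 against 232 CPM; control 59.6). The antioxidant response element core TGACNNNGC was found in the promoters of 3 of 9 members with a window (33.3%), against 14.1% of tested genes, and none of the 3 (Txnrd1, G6pdx and Abcc4) was among the members that differed most.

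The heme and iron list had 3 higher (30%) and 2 lower (20%) of 10 tested of 20, against 21.4% and 32.7% of all genes tested. Its median was 0.32, against -0.09 over all genes. The 2 lower became 1 without rhabdomyolysis 1, rhabdomyolysis 2 or cisplatin 4, and the median was 0.13 without rhabdomyolysis 3. Beside Hmox1, biliverdin reductase B, Blvrb, was higher in rhabdomyolysis (71.4 against 39.3 CPM), and transferrin, Trf, was lower (42.5 against 69.4 CPM). Haptoglobin, Hp, did not pass: it was at 5.39, 2.66, 209 and 2.95 CPM in rhabdomyolysis and 6.65, 8.07, 7.60 and 3.49 in cisplatin, and its difference of 0.71 became -0.67 without rhabdomyolysis 3, a value that passed the threshold (limma adjusted p 0.0264). On recovered reads edgeR called it higher in rhabdomyolysis (log2 difference 3.10, edgeR adjusted p 0.00639). Cyp2a5, a cytochrome P450 that oxidizes coumarin and bilirubin, was at 423, 759, 722 and 982 CPM in rhabdomyolysis, 34.2, 32.2, 29.2 and 34.9 in cisplatin and 159, 136, 134 and 156 in the controls, so that the injuries lay on opposite sides of the control level.

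Targets of p53 were higher in cisplatin. Of 28 listed genes 26 were tested; 24 were lower in rhabdomyolysis, 1 was higher and 1 did not pass, against 32.7% lower and 21.4% higher over all genes. The median difference was -1.49. Psrc1, a spindle-associated protein, was nearly absent outside cisplatin: it was at 0.284, 0.591, 0.855 and 0.227 CPM in rhabdomyolysis, 0.165, 0.642, 0.401 and 0.414 in the controls and 34.4, 45.8, 44.6 and 41.2 in cisplatin. Ccng1, cyclin G1, was at 339.6, 392, 323 and 396 CPM in rhabdomyolysis, 2103, 1778, 1773 and 2115 in cisplatin and 383, 427, 436 and 420.0 in the controls. The rhabdomyolysis libraries of Ccng1 overlapped the controls, and every cisplatin library was above them (difference between the injuries -2.42, SE 0.11, limma adjusted p 1.38e-13).

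Cdkn1a, the cell cycle inhibitor p21, was far above control in both injuries and further in cisplatin. It was at 322, 346, 384 and 523 CPM in rhabdomyolysis, 928, 1171, 1206 and 1135 in cisplatin and 4.00 CPM ± 1.30 in the controls (SD, n = 4). Its log2 difference from control was 6.31 in rhabdomyolysis and 7.82 in cisplatin. Phlda3, an inhibitor of AKT signalling, was at 18.9 CPM ± 1.34 against 143 ± 11.8, and the death receptor gene Eda2r at 13.6 CPM ± 1.33 against 100.04 ± 5.34 (SD, n = 4 each). Mdm2, the ligase that degrades p53, was at 109 CPM ± 14.8 in rhabdomyolysis, 268 ± 21.9 in cisplatin and 52.1 ± 2.25 in the controls (SD, n = 4 each). The apoptosis genes Bax (54.0 against 94.4 CPM), Bbc3 (5.24 against 15.3 CPM) and Fas (7.67 against 27.0 CPM) and the antiproliferative gene Btg2 (97.8 against 391 CPM) were lower in rhabdomyolysis as well. Plk3, a stress-activated kinase, was the member in the other direction (127 against 55.5 CPM). Gdf15, a target of both p53 and the integrated stress response, did not pass, at 124, 100.1, 104 and 142 CPM in rhabdomyolysis and 111, 168, 135 and 144 in cisplatin.

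**Figure D3:**
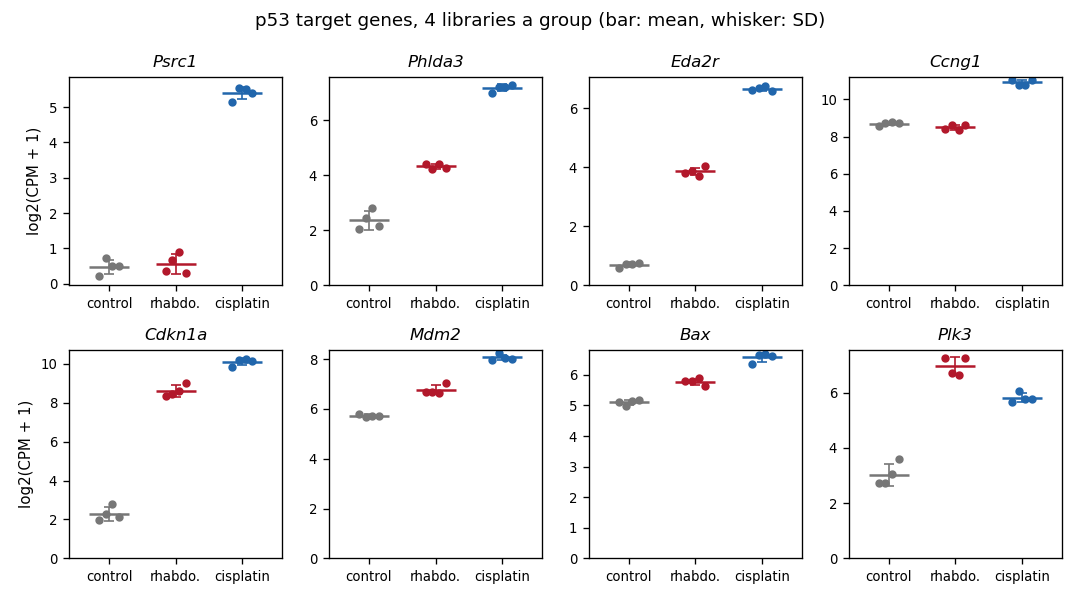
log2(CPM + 1) of 8 p53 target genes in controls 5 to 8 (grey), rhabdomyolysis (red) and cisplatin (blue); points are libraries, bars are means and whiskers are SDs over 4 libraries. Cisplatin is highest for 7 of the 8 genes, Psrc1 and Ccng1 are near the control level in rhabdomyolysis, and Plk3 is highest in rhabdomyolysis.

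DNA repair genes outside that list were near the background shares of 21.4% and 32.7%. Of 9 tested of 19, 2 (22.2%) were higher and 3 (33.3%) lower in rhabdomyolysis. The lower members included the excision repair nuclease subunits Ercc1, at 29.3, 31.5, 35.3 and 35.3 CPM in rhabdomyolysis and 60.0, 99.4, 92.2 and 77.0 in cisplatin, and Ercc5 (22.5 against 55.6 CPM). Replication and mitosis genes were called in few cases (13 tested of 25; 1 higher, 2 lower, median -0.01), with Pcna higher (99.2 against 71.5 CPM) and Top2a (2.70 against 5.34 CPM) and Rrm2 (9.41 against 17.9 CPM) lower in rhabdomyolysis. Of 16 tested cell death genes of 20, 3 (18.8%) were higher and 8 (50%) lower in rhabdomyolysis, against 21.4% and 32.7% of all genes. The necroptosis effector Mlkl (15.6 against 8.49 CPM) was among the higher, and Casp8 (47.1 against 80.8 CPM) and Bcl2l1 (244 against 341 CPM) were among the lower. Bax and Bbc3 are in this list and in the p53 list.

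Inflammatory genes differed in both directions. Of 22 tested chemokines, cytokines and signalling genes of 25, 4 (18.2%) were higher and 10 (45.5%) lower in rhabdomyolysis, against 21.4% and 32.7% of all genes tested (median -0.32). Cxcl10, an interferon-induced chemokine, was at 12.7, 12.5, 15.3 and 4.54 CPM in rhabdomyolysis and 44.2, 53.8, 63.2 and 38.0 in cisplatin. The adhesion molecules Icam1 (40.4 against 129 CPM) and Vcam1 (21.3 against 53.1 CPM), the NF-κB feedback inhibitors Tnfaip3 (11.4 against 31.9 CPM) and Nfkbia (43.7 against 93.5 CPM) and the cytokine Lif (20.0 against 51.6 CPM) were lower in rhabdomyolysis. Il11, a cytokine of the same family as Lif, went the other way, at 19.0, 13.1, 30.1 and 5.34 CPM in rhabdomyolysis and 1.17, 7.17, 3.46 and 1.07 in cisplatin. Il24 was also higher in rhabdomyolysis (10.2 against 4.28 CPM). For both, the lowest rhabdomyolysis library lay below the highest cisplatin library. In the interferon and MHC list (12 tested of 20), none was higher and 8 were lower in rhabdomyolysis, led by Irf7 (17.5 against 72.3 CPM), the peptide transporter Tap1 (14.0 against 46.4 CPM) and Isg15 (6.59 against 20.3 CPM). The 4 that did not pass were the MHC class II genes of the list, such as H2-Aa. Few immune cell markers passed: 1 of 12 macrophage markers passed (Cd68, 33.3 against 90.7 CPM) and 2 of 10 neutrophil markers, 1 in each direction. Without rhabdomyolysis 4, 2 macrophage markers were higher. The neutrophil counts rested on single libraries: the 1 higher became 0 without rhabdomyolysis 1, cisplatin 1 or cisplatin 4 and 2 without rhabdomyolysis 2, rhabdomyolysis 4 or cisplatin 3, and the 1 lower became 0 without rhabdomyolysis 2, rhabdomyolysis 3, cisplatin 2 or cisplatin 3. The macrophage markers summed from 159 to 351 CPM in rhabdomyolysis, from 247 to 368 in cisplatin and from 98.1 to 143 in the controls.

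Complement and acute phase genes showed large differences. Of 10 tested of 16, none was higher and 7 (70%) were lower in rhabdomyolysis (median -1.28), against 21.4% and 32.7% of all genes tested. Without rhabdomyolysis 4 or without cisplatin 2, 1 was higher. C3, the central complement protein, was at 39.1, 43.7, 67.3 and 26.1 CPM in rhabdomyolysis, 566, 432, 385 and 470.2 in cisplatin and 11.5, 13.6, 14.96 and 8.70 in the controls. Both injuries lay above the controls and did not overlap each other (difference -3.43, SE 0.27, limma adjusted p 8.43e-10). The fibrinogen chains Fga (284 against 716 CPM) and Fgg (181 against 489.5 CPM), ceruloplasmin, Cp (99.9 against 304 CPM), and complement factor B, Cfb (135 against 313 CPM; control 536), were lower in rhabdomyolysis. Saa1, serum amyloid A1, was at 0.378, 0.197, 0.285 and 0 CPM in rhabdomyolysis and 11.1, 20.99, 10.9 and 15.2 in cisplatin, and Saa4 had at most 3 reads in each rhabdomyolysis library. Gc, the vitamin D-binding protein, was among the 15 largest differences, at 31.3, 24.7, 28.4 and 29.7 CPM in rhabdomyolysis, 643, 805, 655 and 762 in cisplatin and 33.8, 31.4, 34.1 and 29.7 in the controls.

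Tubular injury and repair genes were called in both directions. Of 19 tested of 20, 7 (36.8%) were higher and 6 (31.6%) lower in rhabdomyolysis, against 21.4% and 32.7% of all genes tested, and the median was 0.09. Vgf, a secreted neuropeptide precursor, was at 43.7, 25.9, 42.2 and 19.1 CPM in rhabdomyolysis and 4.09, 15.7, 16.8 and 4.84 in cisplatin, and the 4 controls held none of its reads. Sox9, a transcription factor of tubular repair, was at 45.7, 57.6, 45.8 and 38.6 CPM in rhabdomyolysis and 21.7, 29.2, 29.3 and 18.8 in cisplatin. Neither gene overlapped between the injuries, and each gave a two-sided exact permutation p of 0.0286, the smallest that 4 against 4 libraries allow. Without single libraries the Vgf difference ran from 1.41 to 2.01 and the Sox9 difference from 0.79 to 0.99. Timp1 (116 against 43.1 CPM), clusterin, Clu (4667 against 2144 CPM), osteopontin, Spp1 (25091 against 13338 CPM), and the urokinase receptor Plaur (189 against 92.2 CPM) were higher in rhabdomyolysis.

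The opposite group held the TGF-β-activating integrin Itgb6 at 80.2, 84.5, 124 and 66.9 CPM in rhabdomyolysis and 265, 326, 347 and 294 in cisplatin, Krt20 (354 against 807 CPM), S100a6 (99.9 against 221 CPM) and Cd44 (38.2 against 66.5 CPM). Itgb6 stood on opposite sides of its control mean of 143 CPM. Havcr1, which encodes KIM-1, did not pass, at 1611, 2300.1, 2275 and 1156 CPM in rhabdomyolysis and 1724, 1659, 1546 and 1512 in cisplatin. The EGF receptor ligands Tgfa (19.6 against 37.2 CPM), Areg (0.780 against 3.02 CPM) and Egf (31.1 against 52.9 CPM) were lower in rhabdomyolysis. Of 6 tested members of that list of 11, 5 (83.3%) were lower and none higher, against 32.7% and 21.4% of all genes tested. Of the immediate early genes (21 tested of 24), 8 (38.1%) were higher and 1 (4.76%) lower, against 21.4% and 32.7% of all genes. Maff (107 against 47.5 CPM), Fosl1 (125 against 63.6 CPM), Myc (71.7 against 44.6 CPM) and Klf6 (419 against 297 CPM) were among the higher. Fosb (5.30 against 10.2 CPM) was lower in rhabdomyolysis. Without rhabdomyolysis 1 there were 2 lower, without rhabdomyolysis 4 there were 3 and without cisplatin 4 there were 4.

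Matrix and mesenchymal genes were higher in rhabdomyolysis: 12 of 17 tested of 20 (70.6%), none lower, against 21.4% and 32.7% of all genes tested. Their median was 1.01. Mmp10, stromelysin 2, was at 44.2, 68.4, 65.6 and 60.9 CPM in rhabdomyolysis and 7.24, 7.67, 6.03 and 9.30 in cisplatin, and at 0 in each control. The smooth muscle genes Tagln, at 299, 153, 154 and 194 CPM against 33.6, 62.4, 46.8 and 30.5, and Acta2, at 261, 144, 151 and 114 CPM against 45.9, 50.3, 55.7 and 31.1, did not overlap between the groups. Tenascin C, Tnc (51.9 against 14.0 CPM), and the lysyl oxidase Loxl2 (95.4 against 38.5 CPM) were also higher. Of 8 tested endothelial markers of 16, 3 (37.5%) were higher in rhabdomyolysis and none was lower, against 21.4% and 32.7% of all genes, and 5 did not pass. The higher ones included Pecam1 (173 against 109 CPM) and Eng (246 against 165 CPM), with 6 higher after quantile normalization and 5 with DESeq2, and the summed level ran from 856 to 1258 CPM in rhabdomyolysis, from 551 to 819.6 in cisplatin and from 360.3 to 408 in the controls. Of 6 tested podocyte markers of 10, Podxl was higher (544 against 330.0 CPM) and none was lower, and 2 were higher without rhabdomyolysis 4 or without cisplatin 3. The part of these cell types in the matrix genes was not tested.

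Red blood cell genes had the largest median difference of the lists. All 7 were higher in rhabdomyolysis, against 21.4% of all genes tested, with a median of 4.32. Their summed level ran from 394 to 512 CPM in rhabdomyolysis, from 7.60 to 21.5 in cisplatin and from 1170.5 to 2942 in the controls. Both injuries thus lay below the controls, cisplatin much further. Alas2, the erythroid enzyme of heme synthesis, was at 4.73, 3.55, 5.80 and 6.36 CPM in rhabdomyolysis, 9.88, 9.62, 28.3 and 20.2 in the controls and no more than 3 reads in any cisplatin library. Hbb-bs was at 94.1, 38.1, 51.8 and 26.6 CPM in rhabdomyolysis and 0, 0, 0 and 4.55 in cisplatin. The globin genes are near-copies whose reads can be exchanged, and the rows of Hbb-bt and Hbb-b2 are identical in the table. The part of blood or of maturing red cells in other differences was not tested.

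**Figure D4:**
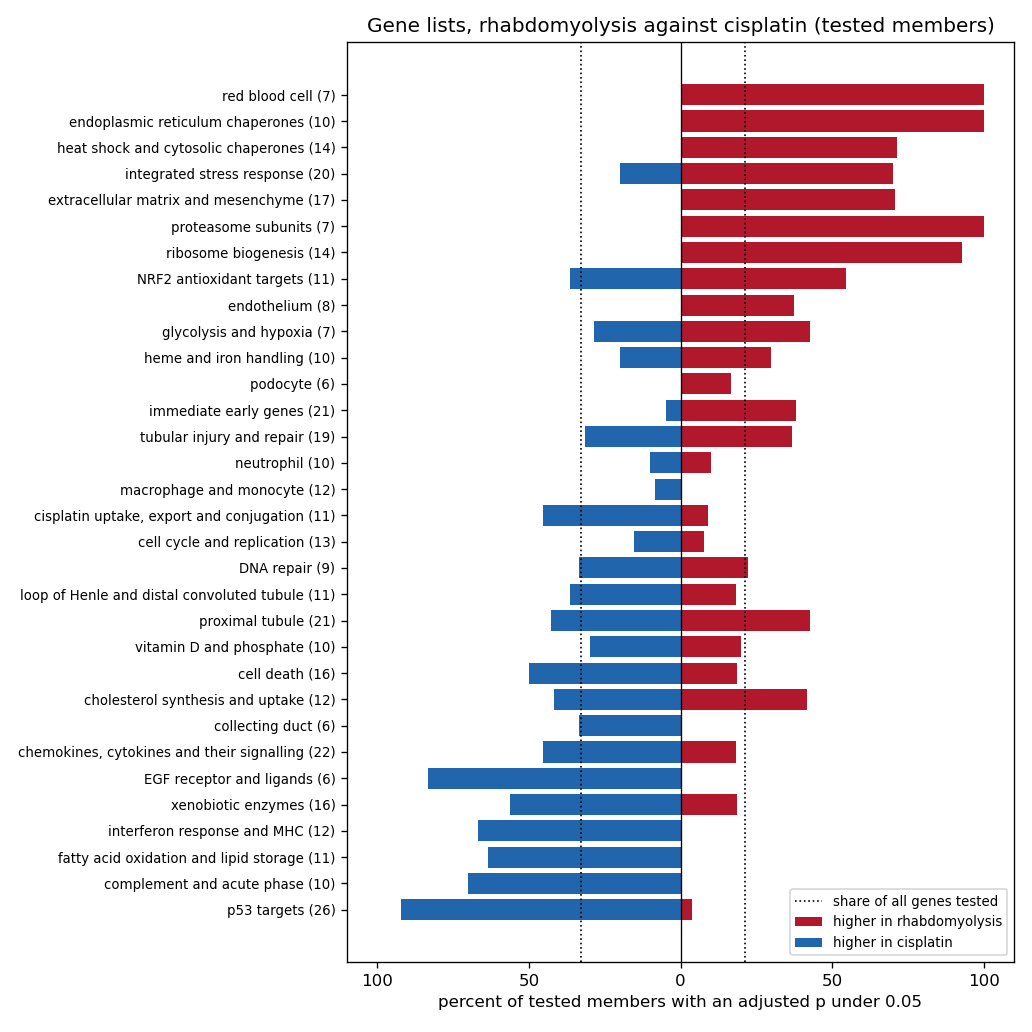
Percent of the tested members of each gene list that were called higher in rhabdomyolysis (red, to the right) or higher in cisplatin (blue, to the left), with the number tested in brackets; dotted lines mark 21.4% and 32.7% of all genes tested. Lists are ordered by median difference, from red blood cell genes, ER chaperones and heat shock genes at the top to complement genes and p53 targets at the bottom.

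Proximal tubule markers were far below control in both injuries, and between the injuries they divided evenly. Of 21 tested of 23, 9 were higher and 9 lower in rhabdomyolysis (42.9% each), against 21.4% and 32.7% of all genes tested. The median was -0.06. Higher in rhabdomyolysis were the phosphate transporter Slc34a1, at 1301, 1089, 1048 and 1363 CPM against 611, 212, 312 and 521, the inositol oxygenase Miox, at 347, 274, 232 and 329 against 102, 61.3, 86.6 and 131, the neutral amino acid transporter Slc6a19 (152 against 63.6 CPM), the organic anion transporter Slc22a8 (101 against 44.0 CPM) and the glucose transporter Slc5a2 (239.9 against 148 CPM). Their control means were 6529 CPM for Slc34a1 and 2618 for Miox. Lower in rhabdomyolysis were the endocytic receptor cubilin, Cubn, at 32.9, 56.1, 47.0 and 56.1 CPM against 239, 137, 132 and 190.4, and the water channel Aqp1, at 96.6, 97.8, 119.6 and 108 against 413, 354, 306 and 376. Their control means were 362 and 727 CPM. The difference was 1.64 for Slc34a1 (SE 0.23, limma adjusted p 4.22e-06) and -1.83 for Cubn (SE 0.19, limma adjusted p 6.96e-08). The proximal tubule transcription factor Hnf4a (123 against 359 CPM; control 1234), the dicarboxylate transporter Slc13a3 (70.3 against 236 CPM), megalin, Lrp2 (213 against 371 CPM), and the gluconeogenic enzymes Fbp1 (140.3 against 319 CPM) and G6pc (30.9 against 92.1 CPM) were lower as well. 

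**Figure D5:**
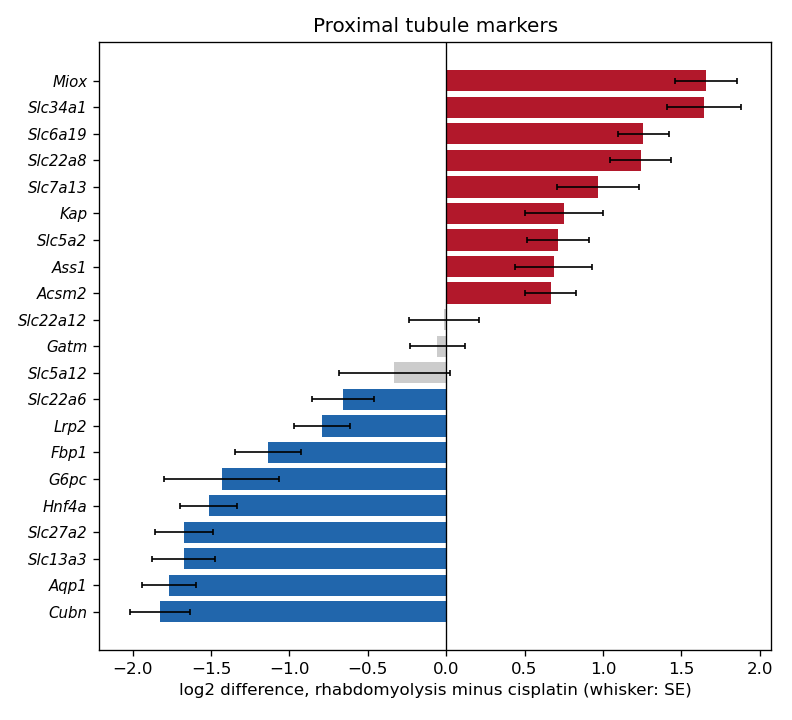
log2 difference, rhabdomyolysis minus cisplatin, of the 21 tested proximal tubule markers with its SE; red bars are genes called higher in rhabdomyolysis, blue bars genes called lower and grey bars genes not called. The 9 red and 9 blue bars span 1.66 (Miox) to -1.83 (Cubn).

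The vitamin D and phosphate list had 2 higher (20%) and 3 lower (30%) of 10 tested of 13, near the background shares. The phosphate transporter Slc34a3 was higher in rhabdomyolysis (15.3 against 3.53 CPM), while the vitamin D receptor, Vdr (73.0 against 306 CPM), and the vitamin D-degrading enzyme Cyp24a1 were lower. Cyp24a1 was at 3.40, 3.74, 17.1 and 6.36 CPM in rhabdomyolysis, 294, 301, 375 and 309.7 in cisplatin and 40.8, 94.5, 225 and 128 in the controls. In the distal nephron the thiazide-sensitive cotransporter Slc12a3 was higher in rhabdomyolysis, at 539.7, 482, 394 and 404 CPM against 102, 83.3, 139 and 123, and the loop cotransporter Slc12a1 was lower (86.2 against 192 CPM), as was the tight junction gene Cldn10 (17.5 against 63.8 CPM). The loop and distal list was near the background shares of 21.4% and 32.7%, with 2 higher (18.2%) and 4 lower (36.4%) of 11 tested of 14, and with 1 higher without rhabdomyolysis 1 or cisplatin 4. The collecting duct list had none higher and 2 lower (33.3%, against 32.7% of all genes) of 6 tested of 15, with 1 lower without rhabdomyolysis 3, cisplatin 1 or cisplatin 4.

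Lipid oxidation genes were lower in rhabdomyolysis: 7 of 11 tested of 22 (63.6%), none higher, against 32.7% lower and 21.4% higher over all genes tested. Their median was -0.95. The PPARα targets Cyp4a14 (19.5 against 192 CPM; control 27.8) and Ehhadh (77.7 against 365 CPM; control 705) and the acyl-CoA dehydrogenase Acadm (212 against 414 CPM; control 957) were among the lower. Cholesterol genes divided, with 5 higher and 5 lower (41.7% each) of 12 tested of 20, against 21.4% and 32.7% of all genes. The synthesis enzyme gene Hmgcs1 (130.0 against 287 CPM) was among the lower. Of 7 tested glycolysis and hypoxia genes of 21, 3 (42.9%) were higher and 2 (28.6%) lower, against 21.4% and 32.7% of all genes. Pkm (594 against 349 CPM) was among the higher, and Bnip3 (65.4 against 196 CPM) and Car9 (1.99 against 4.98 CPM) were the lower. Without cisplatin 2, 5 were higher.

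The largest difference of all genes tested was that of a drug-metabolizing enzyme. Of 16 tested xenobiotic genes of 21, 3 (18.8%) were higher and 9 (56.2%) lower in rhabdomyolysis (median -0.73). The shares over all genes tested were 21.4% and 32.7%. Without cisplatin 1, 5 xenobiotic genes were higher. The carboxylesterase Ces2e was at 6.62, 5.71, 8.55 and 5.56 CPM in rhabdomyolysis, 374, 415, 331 and 412 in cisplatin and 18.1, 15.6, 22.7 and 17.0 in the controls, a ratio of means of 57.9 (difference -5.67, SE 0.17, limma adjusted p 1.30e-16). Every cisplatin library lay above every control, and every rhabdomyolysis library lay below. A related carboxylesterase, Ces1e, had the opposite order between the injuries (23.1 against 4.68 CPM; control 143), with both far below control. Cyp2e1 was also higher in rhabdomyolysis (282 against 105 CPM) and the flavin monooxygenase Fmo1 lower (83.3 against 311 CPM). Of 11 tested genes of 13 that take up, export or conjugate cisplatin, 1 (9.09%) was higher and 5 (45.5%) lower in rhabdomyolysis, against 21.4% and 32.7% of all genes, with a median of 0.03. None was higher without rhabdomyolysis 2, rhabdomyolysis 4, cisplatin 2 or cisplatin 3. The organic cation transporter Slc22a2, which takes up cisplatin, was at 51.0 CPM ± 7.85 in rhabdomyolysis, 113 ± 28.8 in cisplatin and 361 ± 57.2 in the controls (SD, n = 4 each). The exporter Slc47a1 (109.9 against 193 CPM) and the copper transporter Slc31a1 (102 against 156 CPM) were lower too, and the metallothionein gene Mt1 did not pass.

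Several of the largest differences lay outside every list. Sstr5, a somatostatin receptor, was at 19.3, 24.9, 23.8 and 27.6 CPM in rhabdomyolysis and had no reads in any cisplatin library, so its mean was at least 74.8-fold higher against the value of 3 reads per library. Myo18b, an unconventional myosin known from muscle, was at 14.5, 19.5, 20.3 and 47.6 CPM in rhabdomyolysis, with 1 read in 1 cisplatin library and none in the others. Fam171b (24.6 against 0.345 CPM), Efr3b, a membrane scaffold of a lipid kinase (82.2 against 3.93 CPM), and C920025E04Rik (35.7 against 2.62 CPM) were also among the 15 largest in that direction. In total 20 tested genes had at most 3 reads in every cisplatin library. They reached the minimum mean only through other groups, so their direction is largely fixed by how they were chosen.

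The reverse set, chosen in the same way, had 19 genes with at most 3 reads in every rhabdomyolysis library. Svop, a synaptic vesicle protein, was at 8.64, 15.8, 13.3 and 14.7 CPM in cisplatin, and 1700003M07Rik (0.109 against 8.36 CPM), Lce1d (0.0238 against 6.97 CPM) and Ano3 (0.105 against 4.04 CPM) had the next highest cisplatin levels beside Saa4. Slc38a3 was at 5.67, 5.02, 5.61 and 7.95 CPM in rhabdomyolysis, 179, 159, 121 and 160.4 in cisplatin and 41.0, 19.4, 41.4 and 32.6 in the controls. The cytochrome oxidase subunit isoform Cox6b2 (1.44 against 41.6 CPM), the carnitine acyltransferase isoform Cpt1c (0.850 against 30.5 CPM), 5-lipoxygenase, Alox5 (0.583 against 18.4 CPM), the phospholipase Plcd4 (0.720 against 19.1 CPM), Zfp365 (2.48 against 42.2 CPM), Fam212b (2.45 against 39.5 CPM) and 1700007K13Rik (0.338 against 36.3 CPM) were also among the 15 largest differences toward cisplatin. For each of these genes the 4 cisplatin libraries lay above the 4 rhabdomyolysis libraries, which was required of the 15 largest differences.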

How the data were processed

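Kidney cortex RNA of 20 mice was sequenced from stranded, polyadenylated libraries, planned at 20 M reads of 150 bases, per the labels' protocols. The authors deposited 1 table of normalized values, in CPM, for 6025 genes; how they scaled them is not given in the sources used here. The submitters' processing notes name FastQC, Bowtie2 2.1.0, RSEM 1.2.15 and edgeR, and the builds GRCm38 and mm10, without the role of each. Columns were matched to samples by library identifier. Within each library 100% of values were whole multiples of the worth of 1 read (within 0.01 reads), which recovered reads per gene. The effective sizes so found were 8.57 to 10.6 M reads in the rhabdomyolysis and cisplatin libraries and 6.07 to 7.49 M in controls 5 to 8. In cisplatin 2 that worth is near 0.1 CPM, but only 0.631% of its values were multiples of 0.1 CPM. Some 13 symbols look like calendar dates and were kept.

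The test was limma 3.58.1 (R 4.3.3) on log2(CPM + 1), in a model of all 20 libraries in 5 groups (the controls of each identifier range and the 3 injuries), moderated with a mean-variance trend, with Benjamini-Hochberg adjustment over 5672 genes; 353 genes averaging under 1 CPM were left out. The code was tested on simulated data. The alternatives tried were another pseudocount (0.1), other minimum means (none, 5 CPM), other scalings (75th percentile, quantile), no trend, the 8 libraries alone, the replicate number as a block, each library left out, a 2-fold minimum, and edgeR 4.0.16 (3124 genes called) and DESeq2 1.42.0 on recovered reads.

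The naming rule admits Vgf and Sox9, the 15 largest differences each way without overlap, up to 5 genes each way called on opposite sides of control, up to 5 each way with at most 3 reads in every library of an injury, and, from each gene list, up to 5 members with the largest differences and its defining members. Of the list members named in the report, 51 are outside the 5 largest differences of their list and were chosen as defining or contrasting members after their values were seen. List members that lost their call when a library was left out were counted but not named in the report, so the named genes do not show how stable the calls are. The members and lists were chosen with earlier results of these data known, and the promoter motifs and the name families after values were seen. Symbols matched 5744 current names, and RefSeq promoters (GRCm38.p6) were found for 4233 tested genes. A floor of 3 reads covers counting error only. Some genes that the rule admits are not reported here.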

Additional observations from a re-analysis of the deposited data

Results flagged for a closer look

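A library that stood apart from the other 3 of its group, by the size of its gap to the nearest library relative to the range of the 4 (given as a share below), was found in 15 of 365 groups of 4 libraries examined. Chance flags about 1 in 20 such groups when genes are not selected, or 18.25 here. Only named genes were examined, and these were mostly chosen for large differences or for calls that held. The number thus cannot show whether such libraries are more common than chance gives. High values in rhabdomyolysis 4 were those of Mdm2 (share 0.885), Ppp1r15a (0.839) and Slc12a1 (0.866). Rhabdomyolysis 1 was high for Hspa1a (0.839) and low for Hmgcs1 (0.948), C920025E04Rik (0.850) and Gbe1 (0.838). Rhabdomyolysis 3 was high for Hp (0.862), at 209 CPM where the other libraries of its group had 2.66 to 5.39 CPM, and for Lce1d (1), which is 1 read against none.

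In the cisplatin group, cisplatin 4 was high for Hbb-bs (1), with 4.55 CPM against none in the other libraries, for Myo18b (1), with 1 read against none, and for Ano3 (0.951). Cisplatin 2 was high for Hmox1 (0.902) and low for Vdr (0.874), and cisplatin 1 was low for Rrm2 (0.881). In each of these genes except Hp the call between the injuries held without the library that stood apart. List members that lost their call without a library were not named, so this was largely fixed by the choice of genes. The effects of the injuries against their shared controls differed in 3068 genes, which is the direct comparison of the report.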

How the results depend on the processing

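Outside the 2-fold minimum, the number of genes called between rhabdomyolysis and cisplatin ran from 2630 to 3271, and from 2706 to 3030 when single libraries were left out. With the 2-fold minimum it was 913, with 284 higher and 629 lower in rhabdomyolysis, cisplatin against control gave 2595, and Sox9, at 0.91, no longer passed. Quantile normalization called 3271 genes, 2785 of them in common with the deposited scale and in the same direction, and edgeR called 3124, with 3036 in common. The fit with the replicate number as a block called 2834, with 2738 in common. The numbers did not pair the mice: deviations of same-numbered libraries correlated at -0.0977, -0.207, 0.0334 and 0.325, and 2 of 8 libraries correlated best with their own number.

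The naming rule admitted 414 tested genes, of which 283 were called, and 250 of these kept call and direction in every alternative except the 2-fold and 5 CPM minimums. Without at least 1 library 28 lost the call, and none of the 28 is named. Havcr1, not called, changed sign to -0.0338 after quantile normalization, and Hp, not called, ran from -0.67 to 1.28 without single libraries; the cause was not tested. Of 32 list medians 9 changed sign in some alternative, each at most 0.108 from 0 with the deposited scale. Counts of list members higher in rhabdomyolysis became, with quantile normalization, 7 rather than 3 for xenobiotic enzymes, 5 rather than 3 for heme and iron, glycolysis and cell death, and 5 rather than 2 for the loop and distal tubule. With DESeq2, 2 rather than 4 NRF2 targets and 1 rather than 4 stress response genes were lower, and with a 5 CPM minimum 1 of 15 tested rather than 4 of 22 chemokine and cytokine genes were higher. In the complement list 1 gene was higher rather than none with quantile normalization, DESeq2 or the block, and 2 with edgeR. No neutrophil marker passed with a pseudocount of 0.1, the 8 libraries alone, the block or edgeR, and no cisplatin handling gene was higher with the 8 libraries alone or the block. Few reads limited the lowest levels, where small differences could not be detected.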

Other observations

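Some gene families defined by their symbols were looked at after their values had been seen, so they are described without a test, beside 21.4% higher and 32.7% lower over all genes tested. Of 26 tested Nduf genes, which encode subunits of complex I, 23 were lower, none was higher and 3 did not pass, with a median log2 difference of -0.66. Their median against control was -1.30 in rhabdomyolysis and -0.67 in cisplatin, contrasts that share their controls. Ndufb4 was at 82.9 CPM ± 4.89 in rhabdomyolysis, 199.6 ± 52.0 in cisplatin and 225 ± 14.1 in the controls (SD, n = 4 each). Of 12 tested cytochrome c oxidase subunit genes, 8 were lower, none was higher and 4 did not pass; the lower ones include Cox8a (257 against 439.6 CPM; control 597). Of 8 Pex genes of peroxisome assembly, 5 were lower, and Pex19 was at 63.4 against 109 CPM (control 154). With 75th percentile scaling, quantile normalization and DESeq2, from 20 to 21 of the Nduf genes were lower and at most 1 was higher.

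Aldehyde dehydrogenases were lower in rhabdomyolysis for 12 of 16 and higher for 2. Aldh1a1, which makes retinoic acid, was at 6.43, 12.6, 10.7 and 18.8 CPM in rhabdomyolysis, 102, 109, 82.3 and 135 in cisplatin and 4.45, 2.73, 4.14 and 4.42 in the controls, so that both injuries lay above control and cisplatin furthest. The serine protease inhibitor gene Serpina10 was at 5.67 CPM ± 3.12 against 67.2 ± 7.33 (SD, n = 4 each), and 5 of the 6 Serpina genes were lower in rhabdomyolysis with none higher, though some are near-copies whose reads can be exchanged. Nucleoporin genes leaned the other way, with 6 of 8 higher, among them Nup62 (47.6 against 25.6 CPM) and Nup98 (93.9 against 56.8 CPM), and Nup210 lower (28.6 against 41.7 CPM), a call that was lost with 75th percentile scaling and without rhabdomyolysis 4. Among the translation factor genes, the inhibitor genes Eif4ebp1 (84.8 against 43.6 CPM) and Eif4ebp3 (9.95 against 30.4 CPM) differed in opposite directions.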
